A study of Drosophila melanogaster with 64 samples.

Results

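The 6 genes described here encode the larval serum proteins and 2 fat body proteins of Drosophila melanogaster: Lsp1alpha, Lsp1beta, Lsp1gamma, Lsp2, Fbp1 and Fbp2. They were taken by gene symbol from a table of RNA-seq counts over 17606 genes in testes. They were chosen by measured values of these data: earlier results had shown them among the genes that differed between testes of sterile and fertile lines at the third larval instar (L3), and between adult and L3 testes of the parental stock. Those contrasts are therefore given as values without a test, and tests are kept for other contrasts. Those share libraries with the choice, since all L3 libraries and the adult parental ones entered it, so the tests are not independent of it. All 6 genes passed the filter on low counts in every fit reported. The filter can be met by a single group, so in a stage fit the L3 libraries alone could carry a gene through it.

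Larval serum proteins are storage proteins of the hexamerin family. The fat body makes them during the third instar, secretes them into the hemolymph and takes them up again before the puparium forms, and their amino acids are used to build adult tissue. Lsp1alpha, Lsp1beta and Lsp1gamma encode the related subunits of one hexamer, and Lsp2 encodes the subunit of a second one that adult fat body also makes. Fbp1 encodes the ecdysone-induced fat body receptor through which these proteins return, and Fbp2 encodes a fat body protein related to alcohol dehydrogenase. The L3 dissection removed fat body with papain and collagenase.

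The series holds 64 libraries of testis RNA, 4 replicates for each of 8 lines at 2 stages. Sterile males carried 1 of 5 translocations between the X chromosome and chromosome 2, T(1;2) BM1, BM5, BM6, BM24 or BM46. Fertile males carried the T(1;2) BM4 or BM21, or came from the irradiated parental stock without a translocation, which is counted here with the fertile lines. Males of all lines, parental ones included, carried Dp(1;1)scV1 on an X chromosome marked with y2 y+ sc+ scV1 and, farther along, with su(wa), wa, cv, v and f. The sterile lines were kept with females bearing the balancer FM7i, P{ActGFP}JMR3, whereas the fertile lines and the parental stock were kept with attached-X C(1)M4, y females, so sterility and the way the stock was kept cannot be told apart. Each translocation was represented by a single stock.

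L3 samples were pools of 15 testes from larvae that had stopped moving and had not yet everted their spiracles. Adult samples were pools of 20 testes from males of 1 to 5 days, separated from the seminal vesicle. Replicates were separate pools that the labels do not assign to separate crosses, so p-values measure the spread between pools, which may be technical. Libraries were strand-marked and made from polyadenylated RNA.

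In the count table Lsp1alpha (FBgn0002562) lay on the X chromosome at 12490291 to 12492982, plus strand, with its exons in 2 blocks. Lsp1beta (FBgn0002563) lay on 2L at 898500 to 901316 and Fbp2 (FBgn0000640) on the same arm at 9426784 to 9427917, both on the plus strand. Lsp1gamma (FBgn0002564) lay near the tip of 3L at 66430 to 68995 and Lsp2 (FBgn0002565) on the same arm at 12129393 to 12131869, both on the plus strand. Fbp1 (FBgn0000639) lay on 3L at 14094589 to 14098053, minus strand, in 1 exon block, as did Lsp2. These coordinates are those of the Drosophila assembly BDGP6, in which 17494 of the 17606 genes of the table had the same place. The 3 Lsp1 genes resemble each other, and how reads that match several genes were counted is not known here, so both the division of reads among them and their sum are uncertain.

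Library totals ranged from 8961413 to 21275143 counts at L3 and from 20387 to 24650332 in adults. Of the adult libraries 3 held under 1000000 counts, namely BM6 replicate 3 with 20387, BM24 replicate 3 with 43347 and BM24 replicate 2 with 233047. Fits of adult BM6 and BM24 libraries are also given without them. No 2 libraries of a group held identical counts (0 of 96 pairs), and over the 88 pairs without the shallow libraries the chi-square per degree of freedom was 2.43 to 60.7. Genes that define testis were at high levels throughout. The summed level of 16 germline genes, such as bol and Mst98Ca, was 4561 to 5756 CPM (counts per 1000000 of the library total) in L3 libraries of sterile lines and 4599 to 6006 CPM in those of fertile lines, and none of the 16 or of 7 somatic testis genes differed between the classes by edgeR's quasi-likelihood test.

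In L3 testes all 6 genes stood higher in each of the 5 sterile lines than in any of the 3 fertile lines, when lines are compared by their means. The 6 together averaged 1073 ± 296 CPM in sterile lines and 213 ± 91.5 CPM in fertile lines (SD over 5 and 3 line means), a ratio of 5.03. These values are what the genes were chosen for. In the same contrast 726 of 13132 genes (5.53%) passed an adjusted p of 0.05 by edgeR, and 3.26% did so as higher in sterile lines. In bulk samples a larger number of cells of one type and more RNA per cell cannot be told apart.

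Lsp1alpha, the X-linked subunit gene, ranged in the 20 libraries of sterile lines from 12.1 to 204 CPM with a median of 65.1, against 3.24 to 37.1 CPM with a median of 9.79 in the 12 libraries of fertile lines. Of the sterile libraries 15 stood above the highest fertile one, so the libraries overlapped although the line means did not. In BM6 the 4 libraries gave 138, 96.1, 25.4 and 204 CPM and in BM24 12.1, 15.4, 98.2 and 173 CPM. The parental libraries gave 13.3, 10.1, 14.0 and 7.26 CPM, close to each other. Replicates of BM6 and BM24 thus spread more widely than those of the parental stock, and BM24 held both the lowest sterile library and one of the highest.

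Lsp1beta, the subunit gene on 2L, ranged from 35.7 to 521 CPM (median 167) in sterile lines, against 7.18 to 124 CPM (median 23.2) in fertile lines. Lsp1gamma ranged from 23.1 to 387 CPM (median 89.1) in sterile lines, against 7.39 to 91.2 CPM (median 16.2) in fertile lines. For Lsp1gamma 9 of 20 sterile libraries stood above the highest fertile library, the lowest such number of the 6 genes, and for Lsp1beta 14 did. Seen from the other side, 5 fertile libraries for Lsp1alpha and 4 for each of the others lay at or above the lowest sterile one, against 8 for Lsp2 and 9 for Fbp1. All 20 sterile libraries lay above the median of the fertile libraries for each of the 3 subunit genes. The highest of the fertile libraries was in each case BM4 replicate 3, at 37.1 CPM for Lsp1alpha, 124 CPM for Lsp1beta and 91.2 CPM for Lsp1gamma.

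Lsp2, the second hexamerin gene, had the smallest ratio between the classes. It averaged 205 ± 56.0 CPM over the 5 sterile line means and 60.6 ± 24.6 CPM over the 3 fertile ones, a ratio of 3.39, where the ratio of Lsp1alpha was 6.76, that of Lsp1beta 6.02 and that of Lsp1gamma 5.63. Libraries of sterile lines ranged from 42.4 to 467 CPM (median 197), against 23.5 to 165 CPM (median 48.8) in fertile lines. The ranges overlapped, and 13 of the 20 sterile libraries were above the highest fertile one.

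Fbp1, the receptor gene and the longest of the 6, had the largest count of the 6 in 29 of the 32 L3 libraries, and Lsp2 had it in the other 3. Fbp1 averaged 426 ± 147 CPM over sterile line means and 77.3 ± 38.2 CPM over fertile ones, a ratio of 5.51. Its libraries ranged from 45.0 to 809 CPM (median 433) in sterile lines, against 20.8 to 222 CPM (median 60.9) in fertile lines, and 16 of the 20 sterile libraries exceeded every fertile library. The 4 libraries of BM6 gave 809, 648, 185 and 708 CPM and those of BM24 45.0, 57.4, 308 and 432 CPM, whereas the 4 of BM21 gave 23.2, 20.8, 64.7 and 41.9 CPM. The replicates of BM24 fell on both sides of the parental values, which were 125, 57.2, 72.1 and 68.2 CPM.

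Fbp2 was the gene whose libraries overlapped least. It ranged from 11.8 to 104 CPM (median 52.4) in sterile lines, against 4.26 to 20.3 CPM (median 10.3) in fertile lines, and 18 of the 20 sterile libraries stood above every fertile one. The 2 exceptions were BM24 replicates 1 and 2, at 15.4 and 11.8 CPM, and the highest fertile library was parental replicate 1. The line means were 50.1 ± 11.3 CPM in sterile and 10.2 ± 2.01 CPM in fertile lines, a ratio of 4.90.

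**Figure D1:**
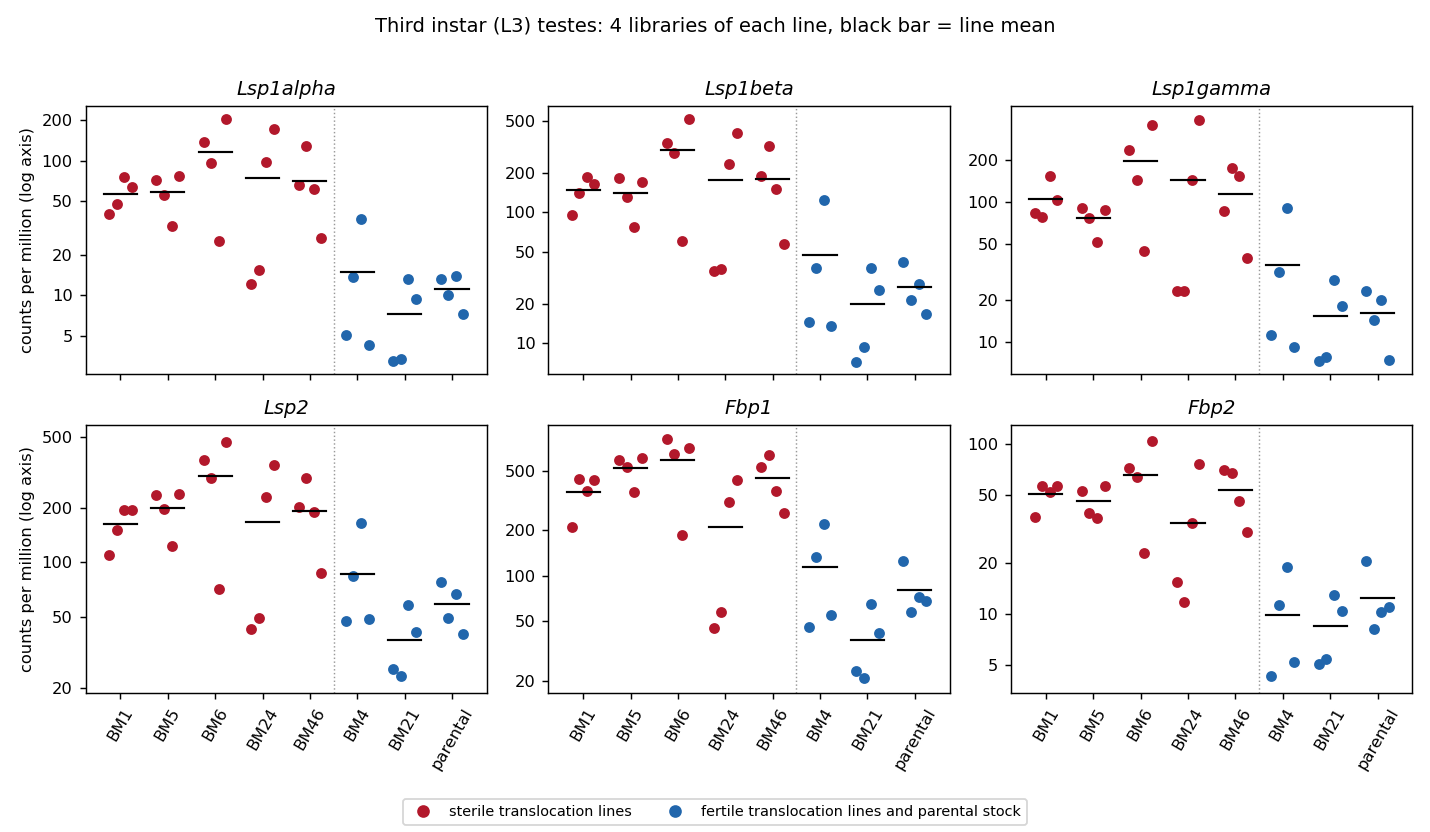
CPM (log axis) of each of the 6 genes in the 4 L3 libraries of each line, with sterile lines left of the dotted line, BM4, BM21 and the parental stock right of it, and a black bar at each line mean. The sterile line means lie above the fertile ones in all 6 panels, while single libraries overlap, with BM24 replicates 1 and 2 low and BM4 replicate 3 high for most genes.

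By length-scaled level (TPM, in which counts are divided by exon length and scaled to a total of 1000000), the mean over the 32 L3 libraries was 143 for Fbp1, 102 for Lsp2, 79.0 for Lsp1beta, 58.5 for Lsp1gamma, 54.8 for Fbp2 and 32.7 for Lsp1alpha. Fbp2, which had the lowest CPM, thus stood near Lsp1gamma once its short transcript was allowed for, and the lowest level per length was that of the X-linked Lsp1alpha. Lsp1alpha is known as an X-linked gene that escapes dosage compensation in Drosophila. Its ratio of CPM between sterile and fertile lines, 6.76, was the highest of the 6, where the autosomal genes on the 2L and 3L arms had ratios of 3.39 to 6.02. These differences between genes were not tested.

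BM21 was the lowest and BM6 the highest line for every one of the 6 genes, while the order between them varied. BM24 was the second highest line for Lsp1alpha and Lsp1gamma and the lowest sterile line for Fbp1 and Fbp2. BM5 was the second highest for Lsp2 and Fbp1 and the lowest sterile line for Lsp1beta and Lsp1gamma. The summed level was 886 ± 213 CPM in BM1, 1045 ± 258 in BM5, 1566 ± 841 in BM6, 809 ± 788 in BM24 and 1059 ± 463 in BM46, against 308 ± 248 in BM4, 126 ± 69.0 in BM21 and 206 ± 69.0 in the parental stock (SD, n = 4 each). The spread within a line was large next to the distance between neighbouring lines. Tested among the 5 sterile lines, none of the 6 genes differed by edgeR's quasi-likelihood F test (adjusted p 0.0956 for Fbp1 to 0.471 for Lsp1alpha, none with an unadjusted p under 0.05), while 65.2% of all genes did. Fbp1 passed without BM6 replicate 3 (adjusted p = 0.0393 by edgeR) or BM24 replicate 4 (0.0198), and Fbp2 passed without BM24 replicate 4 (0.0136).

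Among the 3 fertile lines 0 of the 6 genes differed by the same edgeR test (adjusted p 0.0578 for Fbp1 to 0.702 for Fbp2), against 54.8% of all genes, and Fbp1 alone had an unadjusted p under 0.05. Fbp1 passed without BM4 replicate 1 (adjusted p = 0.0307 by edgeR), BM4 replicate 4 (0.0376) or BM21 replicate 3 (0.0258). Each fertile translocation was also compared with the parental stock. In BM4 the log2 change lay between -0.29 for Fbp2 and 1.15 for Lsp1gamma and no gene passed the test (adjusted p 0.248 to 0.704 by edgeR), against 37.7% of all genes. The widest estimate, that of Lsp1gamma, had a 95% interval of -0.35 to 2.65, so the spread between pools left the size of any difference poorly fixed. Without BM4 replicate 3 the estimates for Lsp1alpha, Lsp1beta, Lsp2 and Fbp1 turned negative, to -0.52, -0.29, -0.00239 and -0.085.

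In BM21 all 6 estimates against the parental stock were negative, between -1.07 for Fbp1 and -0.06 for Lsp1gamma. None passed the test (adjusted p 0.146 to 0.967 by edgeR), against 34.8% of all genes. The 95% interval for Fbp1 reached from -2.18 to 0.04. These 2 comparisons share the parental libraries. At an unadjusted p of 0.05, 0 of the 6 genes passed in either line, where 5549 of all genes did in BM4 and 5277 in BM21, and DESeq2 called 0 of the 6 in either line.

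The library names begin with a letter and number that read as a position on a 96-well plate, and the line means can be listed by that row. At L3 some rows held both classes. In row A, BM1 averaged 886 CPM for the 6 genes together, against 257 CPM for BM4 and the parental stock, a ratio of 3.45. In row B, BM5 and BM6 averaged 1305 CPM, against 126 CPM for BM21, a ratio of 10.4. Of the L3 libraries row C held sterile lines alone. For each gene every sterile line mean lay above every fertile one, so the direction within a row was fixed beforehand. Only the size of the ratio could vary, with the smallest that of Lsp2 in row A (2.26) and the largest that of Fbp1 in row B (14.7). These ratios are no test of the plate row.

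Within the L3 libraries the levels of the 6 genes were correlated. The 15 pairwise correlations of log2 CPM lay between 0.906 and 0.994 over the 32 libraries, which share the difference between the classes as well as their depth, and they were between 0.756 and 0.993 within the 20 sterile libraries and between 0.733 (Lsp2 and Fbp2) and 0.977 within the 12 fertile ones. Lsp1alpha and Lsp1beta were the most alike (r = 0.994), and their log2 ratio had an SD of 0.18 while their log2 levels had SDs of 1.72 and 1.71. The log2 ratios of Lsp1alpha and Lsp1beta to Lsp1gamma varied more, with SDs of 0.34 and 0.31. Lsp1alpha made up 19.0 ± 2.20% of the counts of the 3 subunit genes, Lsp1beta 48.2 ± 3.73% and Lsp1gamma 32.8 ± 4.69% (SD over 32 libraries). In single libraries the share was 14.7 to 23.2% for Lsp1alpha, 40.3 to 55.2% for Lsp1beta and 23.9 to 42.0% for Lsp1gamma, while the levels of the 3 genes varied by 52.4-fold to 72.6-fold between the lowest and the highest library.

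The proportions between the storage proteins and the other genes varied more. Lsp2 took 16.6 to 25.5% (median 19.2%) of the counts of the 6 genes in sterile libraries, against 25.0 to 37.0% (median 29.4%) in fertile libraries. The count of Fbp1 over the summed Lsp1 count was lowest in BM24, at 0.62 ± 0.13, and highest in BM5, at 1.95 ± 0.23 (SD, n = 4 each). In BM24 the Lsp1 subunits therefore outweighed Fbp1 in all 4 libraries, at both the low and the high ends of its range, whereas in BM5 Fbp1 outweighed them in all 4. These proportions come from the same libraries as the levels and were not tested.

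**Figure D2:**
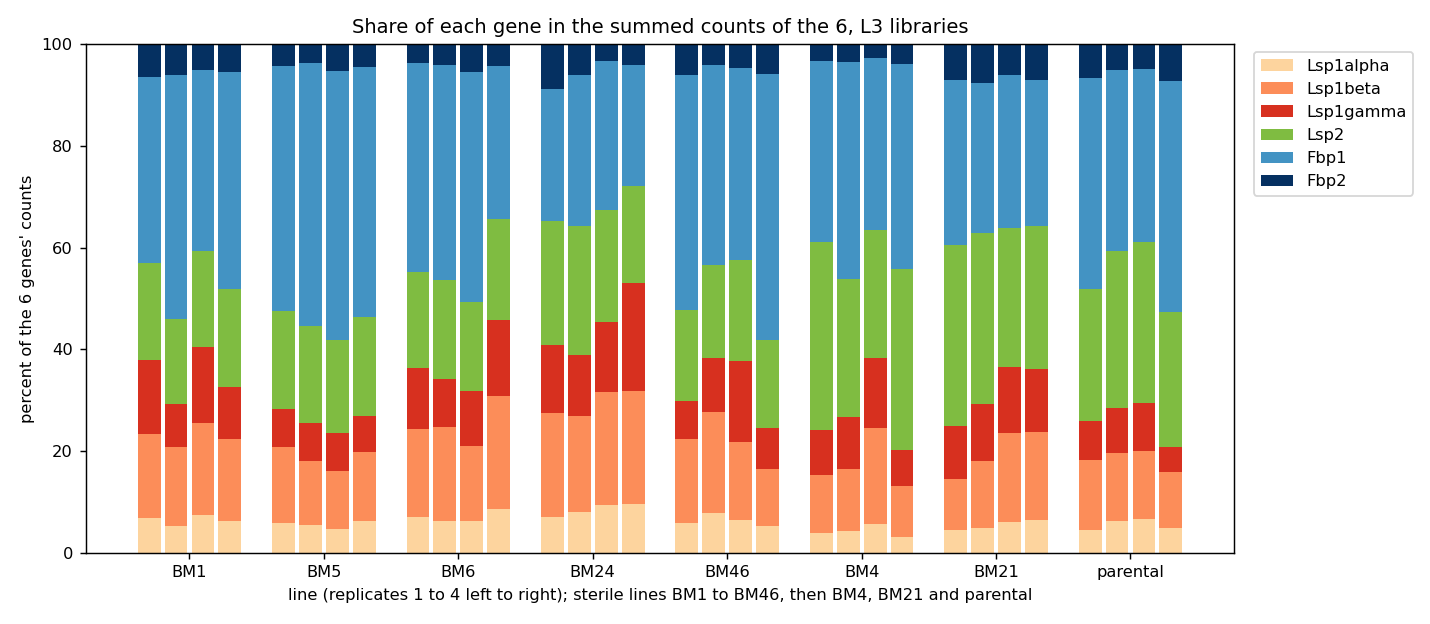
Share (percent) of each of the 6 genes in their summed counts in every L3 library, 4 bars a line in the order of the replicates, with sterile lines first. The Lsp2 share is 16.6 to 25.5% in sterile lines and 25.0 to 37.0% in BM4, BM21 and the parental stock, and the Fbp1 share is smallest in BM24.

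Genes outside the 6 were ranked by how closely their log2 CPM followed the mean of the 6 over the 32 L3 libraries, among 9993 genes with a mean of at least 1 on the log2 scale. The median correlation of all these genes was -0.02 and 95% of them lay below 0.574, while 12 genes exceeded 0.9. The closest were Obp99b (r = 0.987), an odorant-binding protein gene, CG34166 (0.978), CG2233 (0.973) and CG16926 (0.969). They were followed by fon (0.954), which encodes the clotting protein fondue, apolpp (0.948), which encodes the apolipophorin of the hemolymph, and Lsd-1 (0.942), a lipid droplet perilipin. Gs1 (0.939), a glutamine synthetase, Pu (0.929), a GTP cyclohydrolase, and Obp99c (0.922) completed the 10.

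The likeness was also seen within each class of lines. Obp99b followed the 6 genes with r = 0.967 within the 20 sterile libraries and r = 0.964 within the 12 fertile ones, and CG34166 with 0.959 and 0.937. For apolpp the values were 0.948 and 0.720 and for Obp99c 0.914 and 0.682. The median level of Obp99b was 77.0 CPM in sterile and 11.2 CPM in fertile libraries, that of CG34166 51.4 and 7.16 CPM, that of Gs1 8.43 and 3.06 CPM and that of apolpp 88.9 and 47.9 CPM. Obp99b, CG2233, apolpp and Lsd-1 also belong to a list of 24 other fat body genes described next.

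**Figure D3:**
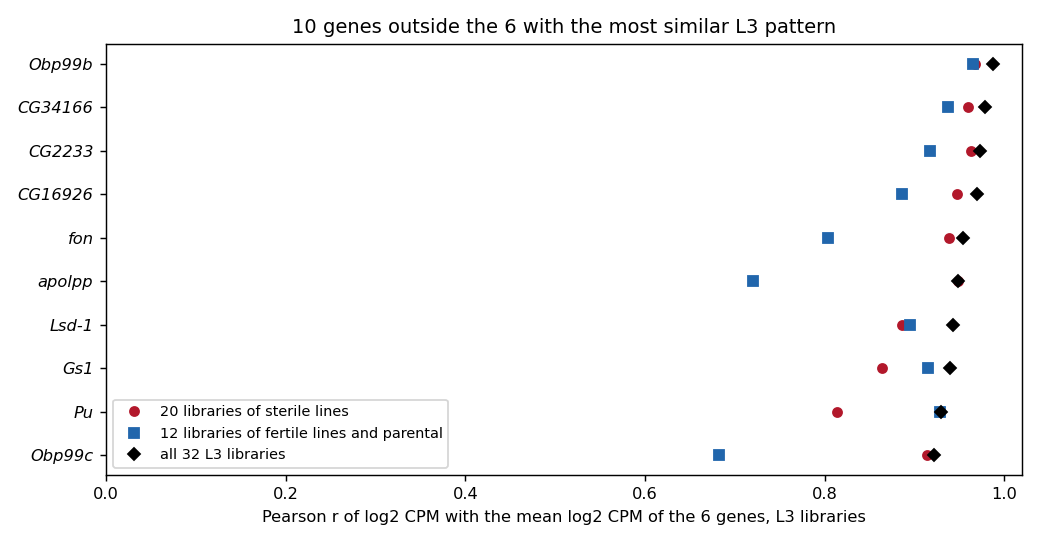
Pearson correlation of log2 CPM with the mean log2 CPM of the 6 genes for the 10 most similar genes outside them, over all 32 L3 libraries (black), the 20 libraries of sterile lines (red) and the 12 libraries of fertile lines and the parental stock (blue). Obp99b lies at 0.964 to 0.987 in all 3 sets, and apolpp and Obp99c fall to 0.720 and 0.682 within the fertile libraries.

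Of the 24 other fat body genes 21 were tested in the L3 comparison of sterile with fertile lines. By edgeR 7 were higher and 0 lower in sterile lines, where 3.26% of all genes were higher. This list and those below were chosen with earlier results of these data known, so their calls are not independent of that choice. The median log2 change was 0.34 over the list against -0.0028 over all genes. The 7 were Apoltp (2.74), a lipid transfer particle gene, Obp99b (2.44), CG2233 (1.89), Tsf1 (1.17), which encodes transferrin, apolpp (1.03), GNBP3 (1.03), a fungal pattern recognition gene, and Lsd-1 (0.95). The summed level of the list overlapped between classes, at 971 to 1409 CPM in sterile and 826 to 1092 CPM in fertile libraries. Its most abundant genes, Cp1 and Desat1, which are not particular to fat body, had medians of 232 and 214 CPM in sterile lines and 244 and 216 CPM in fertile lines. Adh, whose alcohol dehydrogenase is related to Fbp2, was at most 0.06 CPM in sterile and 0.08 CPM in fertile L3 libraries, and its neighbour Adhr had no count in any library. Of 7 adult fat body genes outside the 6, 5 were tested in the same contrast, with 0 higher and 1 lower by edgeR. Obp99a had medians of 139 CPM in sterile and 118 CPM in fertile libraries, and CG2736 of 58.2 and 85.9 CPM.

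Markers of other larval tissues moved with the same contrast in part, and their part in the levels of the 6 genes was not tested. Of 12 hemocyte genes 9 were tested and 3 were higher in sterile lines, NimC2 (1.85), NimC4 (1.88) and Col4a1 (0.68). NimC4 was near the limit of counting, with medians of 0.218 CPM in sterile and 0 CPM in fertile libraries. The list had a median log2 change of 0.63 with 0 genes called lower, while Hml had a lower median in sterile (17.0 CPM) than in fertile libraries (24.7 CPM). It summed to 169 to 315 CPM in sterile and 129 to 205 CPM in fertile libraries as a whole list. Of 7 larval cuticle genes 3 were tested and Lcp4 (3.54) and TwdlD (5.76) were higher, with sums of 2.30 to 9.93 CPM in sterile and 0.13 to 0.99 CPM in fertile libraries. Of 10 muscle genes 7 were tested and sls (0.41) was higher, with sums of 287 to 397 CPM in sterile and 243 to 281 CPM in fertile libraries. The summed gut genes were at 3.38 to 15.2 CPM in sterile and 1.69 to 4.30 CPM in fertile libraries, with 1 of 8 tested and none called. The 9 salivary gland glue genes summed to at most 0.86 CPM in sterile and 0.38 CPM in fertile libraries, with 2 of them at 0 counts throughout.

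Hormone response genes were listed because ecdysone drives Fbp1 and the end of larval life. Of 20 ecdysone response genes 19 were tested, and 1 was higher in sterile lines, ftz-f1 (0.94), a nuclear receptor gene of the prepupa, with a median log2 change of 0.07. Of 9 juvenile hormone genes 8 were tested and 1 was higher, JhI-26 (3.69). The summed ecdysone list was 255 to 392 CPM in sterile and 285 to 417 CPM in fertile libraries. The 3 prophenoloxidase genes, the other members of the hexamerin superfamily, were all tested and 0 were called.

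In adult testes the 6 genes were low in most libraries. Without the shallow libraries, BM46 replicate 1 and BM24 replicate 4, they summed to 5.58 to 54.6 CPM (median 9.58) in the other 27 adult libraries. BM46 replicate 1 and BM24 replicate 4 were deep and were left out for their high levels of the 6 genes. The upper end of this range is thus set in part by that choice. Lsp1alpha was near the limit of counting, with 0 to 30 counts a library and 3 or fewer in 15 of the 27, whereas Lsp2 had 24 to 386 counts a library (median 85). Lsp2, the hexamerin that adult fat body also makes, had the largest count of the 6 in 24 of these 27 libraries and Fbp1 in 3, where at L3 Fbp1 led. Fbp1 also led in the deep libraries left out, with 4542 counts in BM46 replicate 1 and 1522 in BM24 replicate 4. Pooled over these libraries, Lsp2 made up 43.3% of the 6435 counts of the 6 genes (95% Wilson interval 42.1 to 44.5%, counting error only) and Fbp1 25.1%. The shares differed between lines: in BM6 Lsp2 made up 64.2% and Fbp1 2.89%, and in the parental stock, which gave 2039 of the 6435 counts, Lsp2 made up 34.1% and Fbp1 36.1%. The level per length averaged 4.17 TPM for Lsp2, 2.18 TPM for Fbp2, 1.66 TPM for Fbp1 and 0.26 TPM for Lsp1alpha over these libraries.

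A few adult libraries of sterile lines stood far above the rest. The 6 genes summed to 8934 CPM in BM24 replicate 2, 8743 CPM in BM24 replicate 3 and 190 CPM in BM24 replicate 4, while BM24 replicate 1 had 6.10 CPM. In BM46 they summed to 829 CPM in replicate 1 and to 9.43, 8.10 and 8.76 CPM in replicates 2 to 4. In BM6 replicate 3 none of the 6 had a count, which at 20387 counts allows a level of up to 147 CPM for each. BM24 replicates 2 and 3 are the shallow ones, but replicate 4 held 16789795 counts and BM46 replicate 1 held 12490971.

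In BM46 replicate 1 the counts were 863 for Lsp1alpha, 1259 for Lsp1beta, 978 for Lsp1gamma, 1992 for Lsp2, 4542 for Fbp1 and 717 for Fbp2. In BM24 replicate 2 they were 81, 215, 71, 370, 1207 and 138 in the same order of genes, and the Fbp1 count ranked as number 7 among all genes there. Fbp1 rather than Lsp2 had the largest count of the 6 in both, as in most L3 libraries. Germline genes remained at 3622 to 8157 CPM in the libraries of BM24 and BM46, and the other fat body genes summed to 3162 CPM in BM24 replicate 2, 3414 CPM in BM24 replicate 3 and 2033 CPM in BM46 replicate 1. The other fat body list was at 1175 to 2686 CPM in all deeper libraries of sterile lines and 1193 to 1661 CPM in those of fertile lines. What set these libraries apart was not tested.

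Adult sterile and fertile lines, a contrast the choice of the genes did not use although the parental libraries entered it, were compared with the line as the replicate. The log2 changes were 1.28 for Lsp2 to 3.05 for Lsp1alpha, and 0 of the 6 passed edgeR's test (adjusted p 0.221 to 0.515), where 2.76% of all genes did. At an unadjusted 0.05 level 1 of the 6 passed in the edgeR model, Lsp1gamma, as did 3029 of all genes, and DESeq2 called 0 of the 6 after adjustment. In an exact two-sided permutation test of line means the differences in log2 CPM were 1.00 to 1.59 and the p-values 0.25 to 0.768, with 0.0179 the smallest p that 56 splits allow. Without the 3 shallow libraries the differences were -0.059 for Lsp1alpha, -0.012 for Lsp1beta, 0.50 for Lsp1gamma, 0.086 for Lsp2, -0.35 for Fbp1 and -0.050 for Fbp2, and the exact permutation p-values 0.286 to 0.964. In the edgeR fit of line sums they were 1.06 to 2.87 without the shallow libraries (adjusted p 0.233 to 0.586), and -0.14 to 1.08 without BM46 replicate 1 as well. No difference between sterile and fertile adults was thus detected for the 6 genes, and whether the contrast differed between the stages was not tested.

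**Figure D4:**
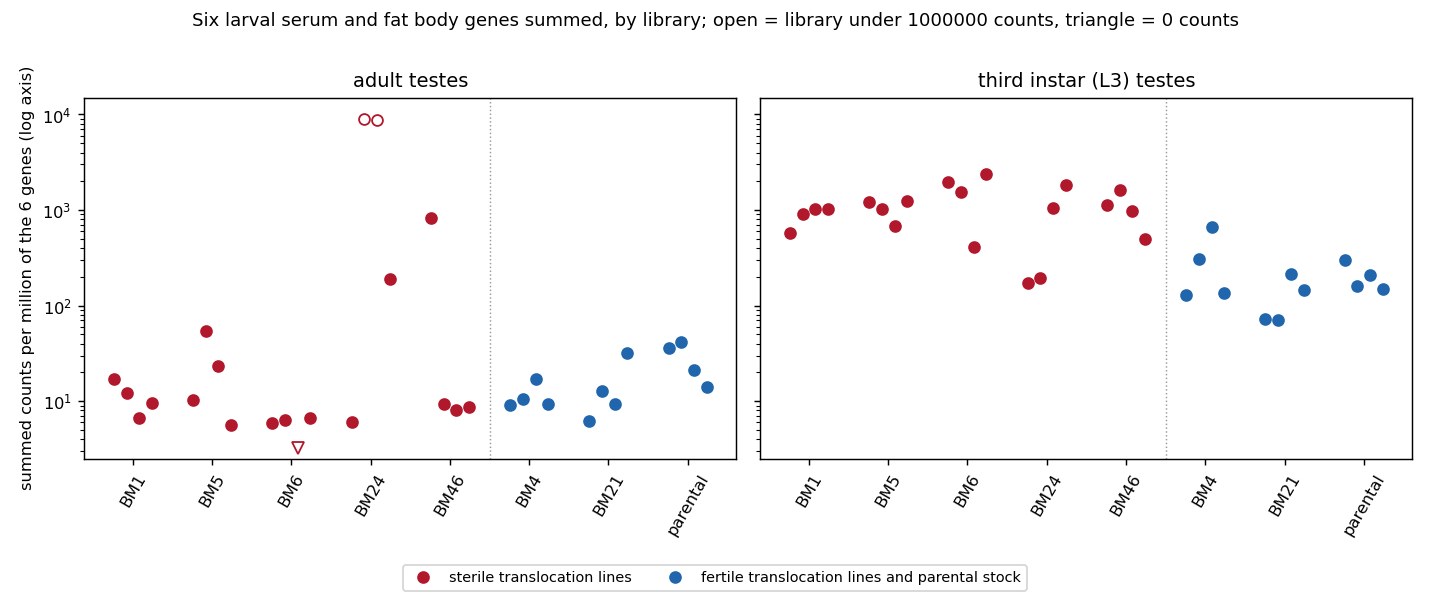
Summed CPM (log axis) of the 6 genes in every adult (left) and L3 (right) library, by line, with sterile lines left of the dotted line, open symbols for libraries under 1000000 counts and a triangle for the library with no count. At L3 the sterile libraries span 174 to 2358 CPM and the fertile ones 70.3 to 658 CPM, and in adults most libraries lie at 5.58 to 54.6 CPM, with BM24 replicates 2 to 4 and BM46 replicate 1 above them.

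Each translocation line was also set against the parental stock in adults, all 7 comparisons sharing the parental libraries, which had also entered the choice of the genes as the adult side of the parental stage difference. In BM24 6 of 6 genes were higher (log2 5.60 for Fbp2 to 7.44 for Fbp1, adjusted p 0.000789 to 0.00312 by edgeR), where 15.0% of all genes were higher and 28.5% called. The Fbp1 libraries of BM24 gave 0.432, 5179, 3460 and 90.7 CPM, against 14.9, 15.0, 4.26 and 2.36 CPM in the parental stock, so replicate 1 lay below the parental range. Without the shallow libraries the BM24 estimates were 2.46, 1.89, 2.36, 1.06, 2.14 and 0.51 for Lsp1alpha, Lsp1beta, Lsp1gamma, Lsp2, Fbp1 and Fbp2, and none passed (adjusted p 0.131 to 0.792 by edgeR). Without BM24 replicate 2 alone, Lsp2 (3.90, adjusted p = 0.0510 by edgeR) and Fbp2 (2.56, adjusted p = 0.275) lost their calls. The BM24 calls thus rested on libraries under 1000000 counts.

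In BM46 Lsp1alpha (log2 4.09 ± 1.55 SE, adjusted p = 0.0417 by edgeR) and Lsp1gamma (3.77 ± 1.30 SE, adjusted p = 0.0247) were higher than in the parental stock, and the other 4 genes did not pass, at 1.99 to 3.13. In this comparison 17.0% of all genes were higher and 34.0% called. The Lsp1alpha libraries of BM46 gave 69.1, 0.295, 0.0717 and 0.133 CPM, against 0.964, 1.22, 1.15 and 0.336 CPM in the parental stock. Replicate 1 alone lay above the parental libraries, and the other 3 lay below all 4 of them. Without BM46 replicate 1 the estimates for the 6 genes were -2.48, -2.18, -0.49, -1.08, -3.46 and -1.74 in the order Lsp1alpha to Fbp2. The call of Lsp1alpha was also lost without any 1 of the parental libraries (adjusted p 0.0826 to 0.0880 by edgeR), and that of Lsp1gamma without parental replicate 1, 2 or 3 (0.0527 to 0.0634). With the replicate number as a block neither passed (adjusted p = 0.139 for Lsp1alpha and 0.0716 for Lsp1gamma by edgeR).

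In the other 5 lines, BM1, BM5, BM6, BM4 and BM21, 0 of 30 gene by line tests passed (log2 -5.73 to 0.18, lowest adjusted p = 0.117 by edgeR), and 0 passed at an unadjusted p of 0.05. Without the shallow libraries 0 of 30 passed as well (log2 -5.71 to 0.18, lowest adjusted p = 0.0572 by edgeR), and 2 had an unadjusted p under 0.05, Fbp1 and Fbp2 of BM6. The shares of all genes called were 51.2% in BM1, 31.1% in BM5, 38.5% in BM6, 17.8% in BM4 and 19.6% in BM21. Among the sterile lines in adults 6 of 6 genes differed by edgeR's F test (adjusted p 2.44e-05 to 0.000253), against 52.9% of all genes. Without the shallow libraries their adjusted p was 0.00142 to 0.00422 by edgeR, and without BM46 replicate 1 as well it was 0.000740 to 0.0203. Both fits kept BM24 replicate 4, with a sum of 190 CPM against 6.10 CPM in BM24 replicate 1. No fit left it out together with the shallow libraries, so these calls may rest on it. Among the fertile lines in adults 0 of 6 differed (adjusted p 0.407 to 0.819 by edgeR, none with an unadjusted p under 0.05), against 24.8% of all genes. The fertile lines held no library of the kind seen in BM24 and BM46, with sums of 6.19 to 41.8 CPM.

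Between adult and L3 testes the 6 genes were compared in the 2 fertile translocation lines, whose stage contrast the choice of genes did not use, although their L3 libraries were part of the fertile class in that choice. In BM4 6 of 6 genes fell in adults, where 40.1% of all genes were lower and 77.8% called. Fbp1 was at 0.964, 1.28, 3.03 and 0.257 CPM in BM4 adults, against 45.7, 133, 222 and 54.4 CPM in BM4 larvae, a log2 change of -6.04 ± 0.64 SE (adjusted p = 2.57e-06 by edgeR). Lsp1alpha was at 0.0567, 0.264, 0.779 and 0.128 CPM in BM4 adults, against 5.09, 13.6, 37.1 and 4.25 CPM in BM4 larvae. Those adult values came from 1 to 9 counts a library, with 3 or fewer in 2 of the 4. The size of its change thus rests on few adult counts. No adult library reached the lowest larval one for either gene.

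The other BM4 changes were -5.35 ± 0.87 for Lsp1alpha, -4.10 ± 0.71 for Lsp1beta, -5.24 ± 0.81 for Lsp1gamma, -3.44 ± 0.39 for Lsp2 and -3.09 ± 0.49 for Fbp2 (log2 ± SE, adjusted p at most 0.000196 by edgeR). In BM21 6 of 6 genes fell too, where 38.5% of all genes were lower and 75.0% called. The BM21 changes were -3.29 ± 0.62 for Lsp1alpha, -3.90 ± 0.64 for Lsp1beta, -3.10 ± 0.45 for Lsp1gamma, -2.21 ± 0.31 for Lsp2, -2.63 ± 0.71 for Fbp1 and -2.11 ± 0.49 for Fbp2 (adjusted p 2.86e-05 to 0.0046 by edgeR). Lsp1alpha was near the limit of counting in BM21 adults as well, with 3 to 23 counts a library. Lsp2 and Fbp2 had the smallest changes of BM21 and of BM4 alike. Fbp1 of BM21 gave 0.516, 2.08, 0.938 and 15.0 CPM in adults, against 23.2, 20.8, 64.7 and 41.9 CPM in larvae, so that adult replicate 4 came close to the larval range without reaching it.

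**Figure D5:**
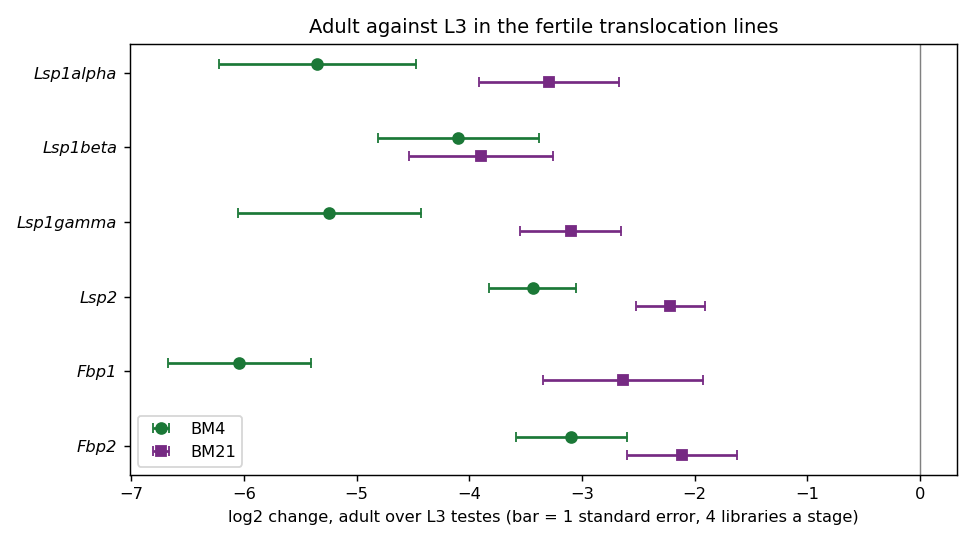
Log2 change of each of the 6 genes between adult and L3 testes in BM4 (circles) and BM21 (squares), with bars of 1 standard error over 4 libraries a stage. All 12 estimates lie below 0, from -6.04 for Fbp1 in BM4 to -2.11 for Fbp2 in BM21.

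Summed over the 6 genes, adults had 11.4 ± 3.68 CPM in BM4 and 15.2 ± 11.7 CPM in BM21, against 308 ± 248 CPM and 126 ± 69.0 CPM in larvae of the same lines (SD, n = 4 each). In the parental stock, where the stage difference had been used in choosing the genes, adults had 28.2 ± 12.9 CPM and larvae 206 ± 69.0 CPM, with log2 changes of -2.97 to -1.12. The sterile lines BM1, BM5 and BM6 had log2 changes of -7.09 to -4.44, -6.17 to -3.84 and -11.1 to -5.72, and BM46 -2.39 to -1.44. Without the shallow library the BM6 changes were -11.2 to -5.76. In BM24 the changes were -1.96 to 3.55 with all libraries and -3.83 to -1.78 without the shallow ones, where the adult sums were 6.10 and 190 CPM.

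Other fat body genes moved both ways between the stages. In BM4 10 of 20 tested genes of that list were higher in adults and 5 lower, and in BM21 13 of 20 were higher and 3 lower, where 77.8% of all genes were called in BM4 and 75.0% in BM21. The list summed to 1193 to 1661 CPM in adult and 826 to 1092 CPM in L3 libraries of fertile lines. Germline genes moved both ways, with 5 of 16 higher and 9 lower in BM4 adults and 3 higher and 10 lower in BM21 adults. Muscle genes summed to 283 to 356 CPM in adult and 243 to 281 CPM in L3 libraries of fertile lines, with 10 of 10 tested genes higher in BM4 adults and 9 of 10 in BM21 adults. The L3 sum was mostly sls, with a median of 230 CPM in fertile libraries. The median log2 change of the muscle list was 4.08 in BM4 and 4.34 in BM21. The part of these tissues in the fall of the 6 genes was not tested.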

How the data were processed

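The submitters' processing notes name bcl2fastq 1.8, cutadapt, HISAT2 2.1.0 and featureCounts 1.6.1. The authors deposited whole-number read counts per gene, 1 column a library. In the sources used here neither a genome build nor a strand or multi-mapping setting of the counting was found. Single-end reads of polyadenylated, strand-marked libraries were counted, per the labels' protocols. The 6 genes and all gene lists were chosen with earlier results of these data known.

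Counts were fitted over all genes with edgeR 4.0.16 in R 4.3.3 (TMM factors, filterByExpr, quasi-likelihood F test, Benjamini-Hochberg threshold 0.05). Sterile and fertile lines were compared on counts summed per line, so that the 8 lines were the replicates, and lines and stages over the 4 libraries of each group. CPM values are counts per 1000000 of the library total, and TPM values use the exon length in the table. Likeness used TMM log2 CPM with a prior count of 2. Adult line means were also compared by an exact two-sided permutation test. Wilson intervals and floors (3 counts) cover counting error only, whereas intervals of log2 changes carry the spread between pools. The fits were run on simulated counts with 1 fixed spread, in which only genes above a minimum level were changed. That setting lacks the wide spread and low counts of the 6 genes in adults, so it does not speak to their adult tests. Named genes were the 6, the called and the most abundant genes of each list, and the 10 most similar genes. Replicate numbers were not treated as pairs, since same-numbered libraries deviated together (correlation over 0.1) in 32 of 112 pairs at L3 and 39 of 112 in adults. Alternatives were other scalings (RLE, library size alone), no filter, a plate row term, a replicate block, DESeq2 1.42.0, summed Lsp1 genes, leaving out single libraries or lines, and leaving out shallow adult libraries. Leaving out BM46 replicate 1 with them, the permutation test without them, and the stage fits of BM6 and BM24 without them were chosen after seeing the data. The set of 27 adult libraries was likewise cut on the levels of the 6 genes, by leaving out BM46 replicate 1 and BM24 replicate 4. Not analysed here are the spike-in RNAs.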

Additional observations from a re-analysis of the deposited data

Results flagged for a closer look

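Of 96 sets of 4 libraries (6 genes, 8 lines, 2 stages) 10 had 1 library far from the other 3 by Dixon's criterion, where chance gives about 1 in 20. All 10 were adult sets. BM46 replicate 1 was far above its group for each of the 6 genes, at 69.1 CPM for Lsp1alpha, 101 CPM for Lsp1beta, 78.3 CPM for Lsp1gamma, 159 CPM for Lsp2, 364 CPM for Fbp1 and 57.4 CPM for Fbp2. Lsp1alpha in BM1 replicate 1 was at 0.90 CPM, from 16 counts. Fbp1 was at 24.4 CPM in BM5 replicate 2 and at 15.0 CPM in BM21 replicate 4. Lsp2 was at 0 CPM in BM6 replicate 3, a library of 20387 counts in which 3 counts would be 147 CPM. Sets in which 2 libraries stood apart together, as in adult BM24, cannot be picked out by this criterion.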

How the results depend on the processing

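Sterile against fertile lines: 726 genes were called at L3, 238 with a plate row term, 1468 with DESeq2 and 404 to 851 with 1 line or replicate number left out (404 without BM1, 418 without BM6, 428 without BM4); 375 were called in adults, and 34, 1714 and 110 to 594 under the same changes. Without replicate 3 the L3 log2 changes of Lsp1alpha, Lsp1beta and Lsp1gamma were 3.38, 3.32 and 3.16. In adults, line means without shallow libraries gave differences of -0.059 (Lsp1alpha), -0.012 (Lsp1beta), -0.35 (Fbp1) and -0.050 (Fbp2). The fitted adult Fbp2 change was -0.14 without BM46 replicate 1 as well, and 0.37 to 2.29 with 1 line or replicate number left out.

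With DESeq2 the adult counts against the parental stock were 4092 (BM1), 2058 (BM5), 2701 (BM6), 1871 (BM24), 2261 (BM46), 1160 (BM4) and 1167 (BM21). Without shallow libraries BM4 had 3487, BM21 3788 and the test among fertile adults 5010, where the full data gave 2265, 2495 and 3150; without BM46 replicate 1 as well, the counts were 3534, 3815 and 5063. Leaving out single libraries gave 1847 to 2050, 1934 to 2294 and 2650 to 3058.

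Leaving out single libraries, the adult BM46 changes ranged from -2.48 to 4.50 for Lsp1alpha, -2.18 to 3.46 for Lsp1beta, -0.49 to 4.17 for Lsp1gamma, -1.08 to 2.37 for Lsp2, -3.46 to 3.54 for Fbp1 and -1.74 to 2.40 for Fbp2, the negative ends without BM46 replicate 1. Without shallow libraries and BM46 replicate 1 they were -2.48, -2.14, -0.49, -1.06, -3.38 and -1.72. Lsp1beta gained a call without shallow libraries (3.09) or BM46 replicate 3 (3.46), and Lsp2 without shallow libraries (2.01). Without BM24 replicate 2, Lsp2 (3.90) and Fbp2 (2.56) of BM24 lost their calls.

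At L3 the BM4 changes ranged from -0.52 to 0.73 for Lsp1alpha, -0.29 to 1.11 for Lsp1beta, -0.00239 to 0.72 for Lsp2, -0.085 to 0.75 for Fbp1 and -0.82 to 0.00421 for Fbp2 with 1 library left out, and the BM21 change of Lsp1gamma from -0.60 to 0.19. Fbp1 differed among fertile lines with library size alone (adjusted p = 0.0439, edgeR).

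A replicate block took the calls of Lsp1alpha (3.67, adjusted p = 0.139 by edgeR) and Lsp1gamma (3.48, 0.0716) in adult BM46 and changed no other call of the 6 genes. Same-numbered libraries of the 2 stages deviated together in 1 of 8 pairs, which came from BM4 and BM21 alone. The stage calls of BM4 and BM21 held in every run. Library size alone moved the median of all genes by -0.43 in BM4 and -0.41 in BM21, and the share of higher calls to 30.6% and 30.0%, against 48.5% and 48.6%. The cause of these changes was not tested.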
